A study of Rattus norvegicus with 18 samples.

Results

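Glutamate_BPC and Glutamate_secret are the groups of a rat excitotoxicity series in which neuroglial cultures met glutamate after exposure to different secreted preparations, and the comparison between them asks whether those preparations left different expression profiles. The members were taken by sample title, Glutamate_BPC 1 to 3 against Glutamate_secret 1 to 3, with the replicate number as the pair, which gave 6 of the 18 libraries of the series. All 6 came from cortical neuroglial cultures of newborn Wistar rats at day 10 in vitro that received 100 µM glutamate, and RNA was taken 4 h later. A preparation secreted by human glial progenitor cells had been added to the medium one day earlier. The design text names vesicles, proteins of 3 to 100 kDa and the total secretome, and the vesicles have a group of their own. The labels do not state which of the other preparations is Glutamate_BPC and which is Glutamate_secret, so the names are used here as given, and no result below says which material lies behind a direction. No dose of either preparation is given in the sources used here. The remaining groups were untreated cultures (Control), glutamate alone (Glutamate), glutamate with memantine (Memantine) and glutamate with vesicles (Glutamate_vesicles), each with 3 libraries. The study describes its experiments as repeated on cultures of unrelated cells and removed a day effect in a plot of other groups, but no label ties a library to a culture or a day. The p-values therefore measure the spread between these samples, which may in part be technical.

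In excitotoxicity, excess glutamate holds its ionotropic receptors open, calcium floods the neuron, and mitochondria and the endoplasmic reticulum come under load. Glial progenitor cells and astrocytes release growth factors, extracellular matrix proteins, antioxidant enzymes and vesicles that can act on neighbouring cells. Glycolysis and cholesterol synthesis are both strong in astrocytes, which supply neurons with lactate and with lipid carried on lipoproteins, and the cystine carrier Slc7a11 links glutathione synthesis to the release of glutamate.

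Estimated counts of the 6 libraries summed to between 9235035 in Glutamate_secret 1 and 15488945 in Glutamate_secret 2. Markers of the cell types of such a culture were present in all 6: summed over the list, astrocyte markers stood at 10620 to 18270 CPM (counts scaled to a fixed library total) in Glutamate_BPC and 9520 to 14600 in Glutamate_secret, and microglia markers at 229 to 775 and 174 to 980 CPM. The neuronal tubulin Tubb3 stood at 217, 172 and 147 CPM in Glutamate_BPC 1 to 3 and at 182, 129 and 149 CPM in Glutamate_secret 1 to 3. Endothelial markers summed to at most 15.9 CPM in any of the 6. Ribosomal RNA made up 13.9, 8.15 and 20.1% of the counts of Glutamate_BPC and 15.8, 3.04 and 26.6% of those of Glutamate_secret, so number 2 was lowest and number 3 highest in both groups. In bulk RNA, fewer cells of a type and less RNA per cell cannot be told apart.

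No gene passed the test between the preparations. Of 14398 genes tested, 0 (0%) had an adjusted p below 0.05 in edgeR's quasi-likelihood test with Benjamini-Hochberg adjustment, and the smallest adjusted p was 0.9998. Before adjustment, 67 genes (0.465%) had a p below 0.05. Glutamate_BPC was the higher group in 20 of them (0.139%) and the lower in 47 (0.326%), and all 67 differed over 1.5-fold. With the replicate number as a block, 0 genes passed after adjustment and 177 (1.23%) had an unadjusted p below 0.05, 65 of them higher and 112 lower. DESeq2 called 0 genes, with 133 at an unadjusted p below 0.05 and a smallest adjusted p of 0.094. The likelihood-ratio test of edgeR called 0, with 94 at an unadjusted p below 0.05. All further values are therefore descriptions of genes that did not pass.

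The data did not show the preparations to act alike either. The median standard error of a log2 fold change was 0.61 over all genes, against a median absolute log2 fold change of 0.26, and a typical 95% interval reached 1.29 to each side. For 2442 genes (17.0%) the whole 95% interval lay within a 2-fold difference in either direction, and with the block this count was 5216. The intervals of the other genes reached beyond a 2-fold difference in at least one direction.

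The replicate number separated the libraries far more than the preparation did. Over genes, a median of 71.7% of the variance of log2 CPM among the 6 libraries went with the number, 5.16% with the preparation and 18.4% with neither. The preparation took the largest of the 3 shares in 7.37% of genes. These shares are not on an equal footing, since the number has 2 degrees of freedom, the preparation 1 and the remainder 2. The first principal component held 68.4% of the variance, and it placed number 2 on its own, with scores of 64.8 for Glutamate_BPC 2 and 124 for Glutamate_secret 2. The other 4 libraries had negative scores, from -6.53 in Glutamate_BPC 1 to -85.1 in Glutamate_secret 3.

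**Figure D1:**
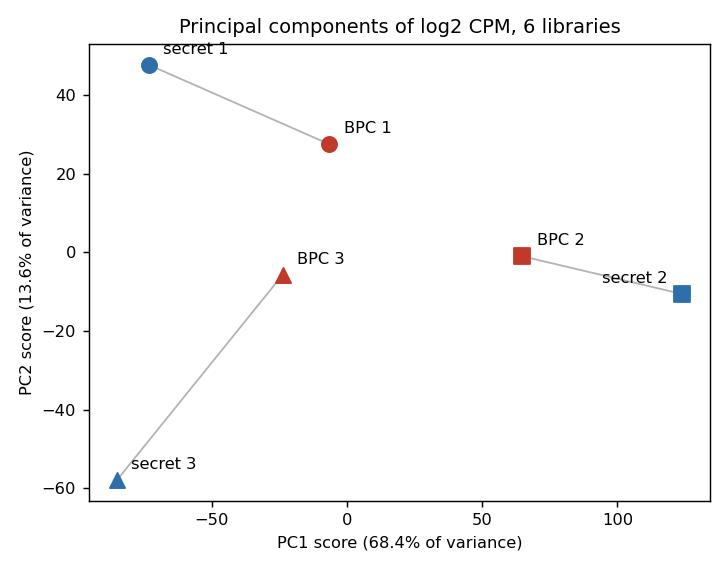
Scores of the 6 libraries on the first and second principal components of log2 CPM; the axes give the share of variance. Red is Glutamate_BPC, blue is Glutamate_secret, circles, squares and triangles are numbers 1, 2 and 3, and grey lines join libraries of one number. Both libraries of number 2 sit at the right, and in each pair the Glutamate_secret library lies farther from the middle on the horizontal axis.

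Glutamate_secret was the more scattered group. Its libraries 1 and 2 differed over 2-fold in 55.7% of genes and its libraries 2 and 3 in 58.2%, whereas libraries 1 and 3 differed in 18.2%. Within Glutamate_BPC the corresponding shares were 17.3, 24.3 and 10.5%. The median standard deviation of log2 CPM was 0.79 in Glutamate_secret and 0.39 in Glutamate_BPC, and 12251 genes (85.1%) had the larger deviation in Glutamate_secret. In the other groups that median was 0.63 in Control, 0.73 in Glutamate, 0.96 in Memantine and 0.52 in Glutamate_vesicles, so Glutamate_BPC had the smallest of all 6 groups. Libraries of the same number in different preparations differed over 2-fold in 17.5, 12.8 and 21.2% of genes for numbers 1, 2 and 3, which is within the range seen inside Glutamate_BPC.

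**Figure D2:**
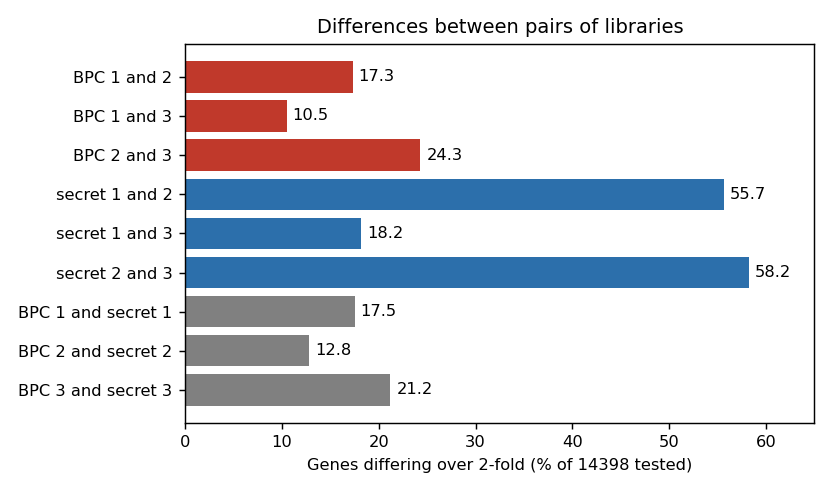
Share of the 14398 tested genes that differed over 2-fold between 2 libraries, for pairs within Glutamate_BPC (red), within Glutamate_secret (blue) and between preparations at the same number (grey). The 2 longest bars, 55.7 and 58.2%, are the pairs of Glutamate_secret that include library 2.

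The preparations had separate CPM ranges, without overlap, in 603 genes (4.19%), 321 (2.23%) of them with Glutamate_BPC above and 282 (1.96%) with it below. A direction shared by all 3 numbers was found in 2685 genes (18.6%), with 1502 (10.4%) higher and 1183 lower in Glutamate_BPC. From the genes without overlap, the 10 with the smallest unadjusted p in each direction are described next. They were chosen by these values, so the values describe them and support nothing further.

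The gene with the smallest p among those higher in Glutamate_BPC was Vip, which encodes vasoactive intestinal peptide, a neuropeptide of a class of cortical interneurons. It stood at 9.69, 5.65 and 4.99 CPM in Glutamate_BPC 1 to 3 and at 2.99, 1.90 and 0.905 CPM in Glutamate_secret 1 to 3. The lowest Glutamate_BPC library was thus above the highest Glutamate_secret library, and both groups had the same order of numbers. The log2 fold change was 1.73 (SE 0.51, edgeR unadjusted p = 0.00375, adjusted p = 0.9998). Glutamate libraries held 5.68, 5.27 and 3.21 CPM and Control libraries 7.14, 13.8 and 8.94 CPM, all above the Glutamate_secret range.

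A pair of genes of sterol synthesis stood in the same set. Cyp51, the lanosterol demethylase, was at 457, 320 and 483 CPM in Glutamate_BPC and at 260, 247 and 278 CPM in Glutamate_secret (log2 fold change 0.68, SE 0.31, edgeR unadjusted p = 0.0459). Dhcr7, the reductase of the last step to cholesterol, was at 51.2, 44.8 and 40.7 CPM against 31.2, 34.7 and 20.8 CPM (0.65, SE 0.32, edgeR unadjusted p = 0.0565). Fads1, the delta-5 desaturase of polyunsaturated fatty acids, was at 507, 450 and 441 CPM against 195, 383 and 151 CPM (log2 fold change 0.94, SE 0.40). In Fads1 the Glutamate_secret library of number 2 lay near the Glutamate_BPC range, and the other 2 were well below it.

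Pfkl, the liver-type phosphofructokinase that commits sugar to glycolysis, was at 74.2, 109 and 104 CPM in Glutamate_BPC and at 44.9, 67.3 and 54.3 CPM in Glutamate_secret (log2 fold change 0.78, SE 0.37). Cox4i2, an isoform of a cytochrome oxidase subunit known for its induction by low oxygen, was at 5.25, 17.5 and 4.88 CPM against 2.36, 4.03 and 0.543 CPM. Its log2 fold change of 1.90 (SE 0.77) was the largest of the 10, and Glutamate_BPC 2 alone was over 3 times any other library of its group. Without Glutamate_BPC 2 the value was 1.05. P4ha2, a subunit of the collagen prolyl hydroxylase, was at 3.8, 3.17 and 4.66 CPM against 2.05, 1.95 and 2.17 CPM.

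Fgfbp3, a carrier that binds fibroblast growth factors, was at 18.2, 12.5 and 13.2 CPM in Glutamate_BPC and at 6.62, 9.07 and 7.42 CPM in Glutamate_secret (log2 fold change 0.91, SE 0.33, edgeR unadjusted p = 0.0142). Arid5a, an RNA-binding protein that stabilises inflammatory transcripts, had a log2 fold change of 1.01 (SE 0.42), and the unnamed gene model AABR07005031.1 one of 1.25 (SE 0.55). Of these 10 genes, 8 had an unadjusted p below 0.05, and with the replicate block all 10 did. Without number 3, Arid5a came to 0.66 and AABR07005031.1 to 0.65, and without Glutamate_secret 2 Fads1 came to 1.43. In 6 of the 10, Glutamate_secret 3 was the lowest of the 6 libraries. The mean of Glutamate lay between the means of both preparations for 8 of the 10, a place that the choice of genes with separate ranges favours.

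On the other side, the gene with the smallest p was Tbc1d5, a GTPase regulator of retromer and autophagy. Its level was 7.97, 6.74 and 11.0 CPM in Glutamate_BPC and 32.8, 14.4 and 82.5 CPM in Glutamate_secret (log2 fold change -2.32, SE 0.79, edgeR unadjusted p = 0.00993). The Glutamate_secret libraries spread over a wide range, whereas those of Glutamate_BPC lay close together.

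Canx, the membrane-bound chaperone calnexin of the endoplasmic reticulum, was at 257, 424 and 412 CPM in Glutamate_BPC and at 1114, 621 and 1882 CPM in Glutamate_secret (log2 fold change -1.73, SE 0.70, edgeR unadjusted p = 0.0253). Slc7a11, the cystine-glutamate exchanger, was at 29.2, 39.1 and 57.5 CPM against 102, 67.9 and 209 CPM (-1.59, SE 0.66, edgeR unadjusted p = 0.0295). With glutamate alone, Slc7a11 stood at 113, 84.9 and 94.1 CPM, above every Glutamate_BPC library. In Control it was at 158 CPM in library 1 and at 25.4 and 27.4 CPM in libraries 2 and 3.

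The other 7 genes had log2 fold changes from -1.29 to -1.84. Kmt2a, a histone H3 lysine methyltransferase, was at 14.0, 8.47 and 14.5 CPM in Glutamate_BPC and at 25.7, 19.4 and 53.8 CPM in Glutamate_secret (-1.41, SE 0.59). Baz2a, a subunit of a complex that silences ribosomal DNA, had a value of -1.68 (SE 0.70). Zc3h4, a zinc-finger protein that restrains non-coding transcription, Zfp236, a zinc-finger protein, Ppfibp2, a liprin-beta scaffold, and Ptpn9, a tyrosine phosphatase, had -1.84, -1.80, -1.45 and -1.29.

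All 10 lower genes shared 1 order of libraries. Within Glutamate_secret, library 3 was the highest, library 1 came next and library 2 was the lowest in 10 of 10 genes, the same order as the ribosomal RNA share (26.6, 15.8 and 3.04%). The first principal component over all genes also had these libraries in this order, with scores of -85.1, -73.4 and 124. How many of all genes had this order was not counted, so it cannot be called a trait of these 10. The order is one of TMM-scaled levels. Glutamate_secret 3 was the highest of the 6 libraries in 10 of 10. Control 1, whose ribosomal RNA share was 43.0%, was the highest Control library in 9 of 10. With the log2 ribosomal RNA share as a covariate the fold changes of the 10 ran from -2.21 to -1.27, against -2.32 to -1.29 without it. Without Glutamate_secret 3 they ran from -1.45 to -0.87, and Tbc1d5 came to -1.45, Canx to -1.25, Slc7a11 to -1.02 and Kmt2a to -0.87. Means of Glutamate lay between those of both preparations in 10 of 10. Choosing genes with separate ranges favours such a place, so this count says nothing about Glutamate_BPC against Glutamate.

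**Figure D3:**
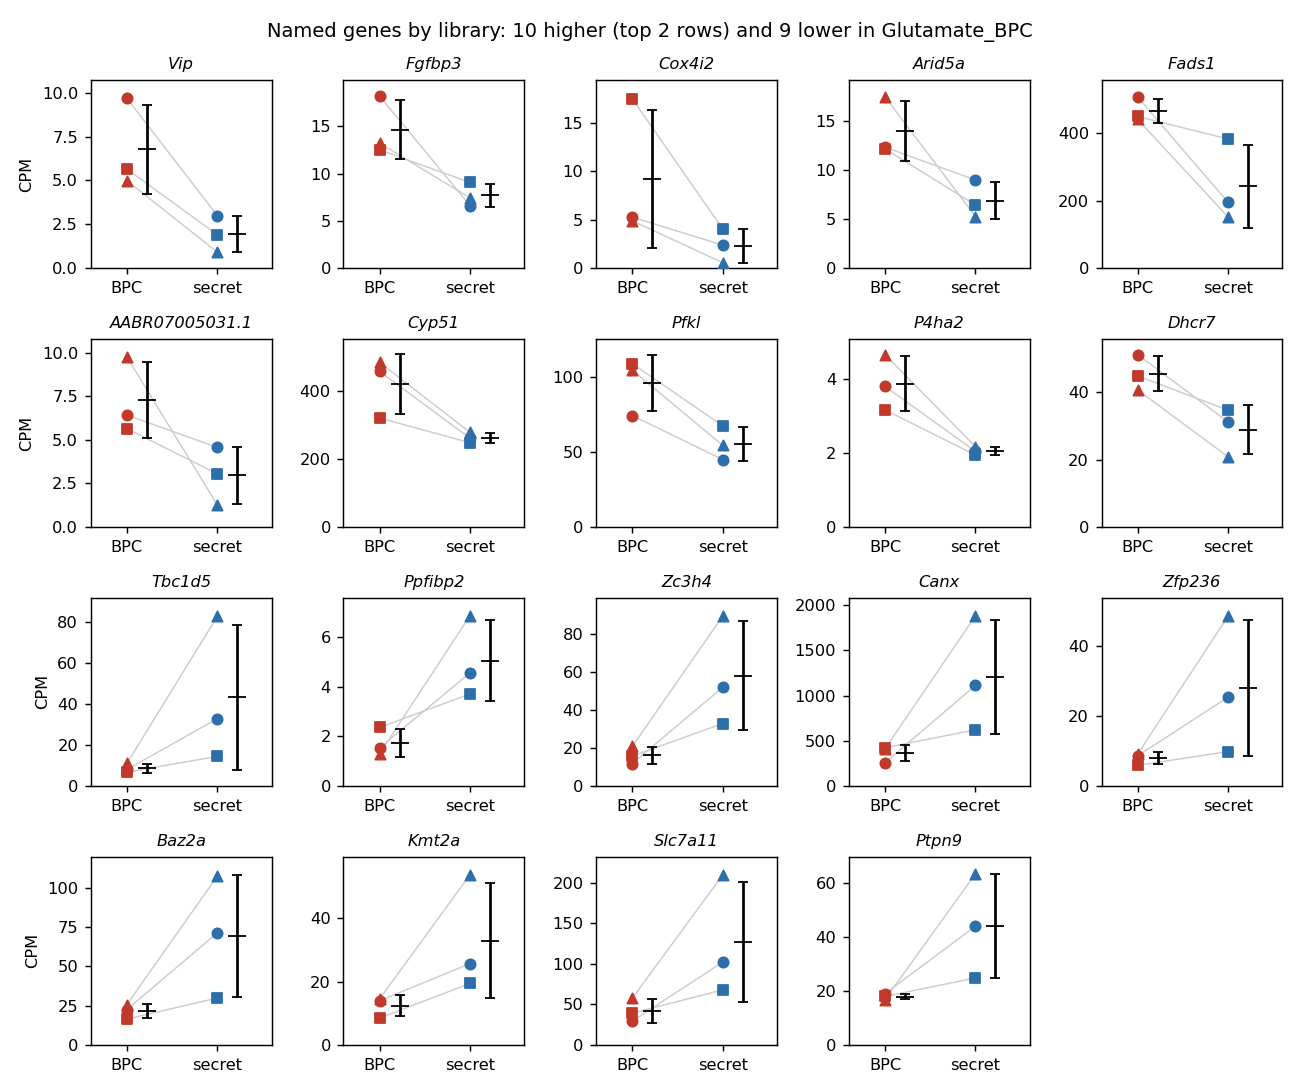
CPM of 19 of the 20 named genes in each library of Glutamate_BPC (red) and Glutamate_secret (blue); circles, squares and triangles are numbers 1, 2 and 3, grey lines join a number, and black bars give the mean and SD of 3 libraries. In the 2 lower rows, with 9 genes, the blue triangle, Glutamate_secret 3, is the highest point of every panel, and the red points lie close together.

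Gene lists for the cell types and pathways of excitotoxicity were described by counts and medians. The 28 lists held 631 distinct genes, of which 569 were tested. An unadjusted p below 0.05 was reached by 6 of them (1.05%, against 0.465% of all genes): Vip, Cyp51 and Pfkl higher, and Canx, Slc7a11 and the complexin gene Cplx2 lower in Glutamate_BPC. With the block there were 7 higher and 5 lower, where 0.451% and 0.778% of all genes had such a p, and 0 list genes passed after adjustment in either fit. The CPM ranges did not overlap in 34 of the 569 (5.98%, against 4.19% of all genes). List medians of the log2 fold change ran from -0.28 for oligodendrocyte lineage markers to 0.34 for glycolysis and hypoxia genes, where the median over all genes was -0.10 and 39.5% of all genes had a value above 0 and 60.5% one below 0. The sign of a small median depended on the fit: 12 of the 28 medians were above 0 without the block and 24 with it, and the median over all genes was then 0.02. Medians are given without the block unless stated.

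**Figure D4:**
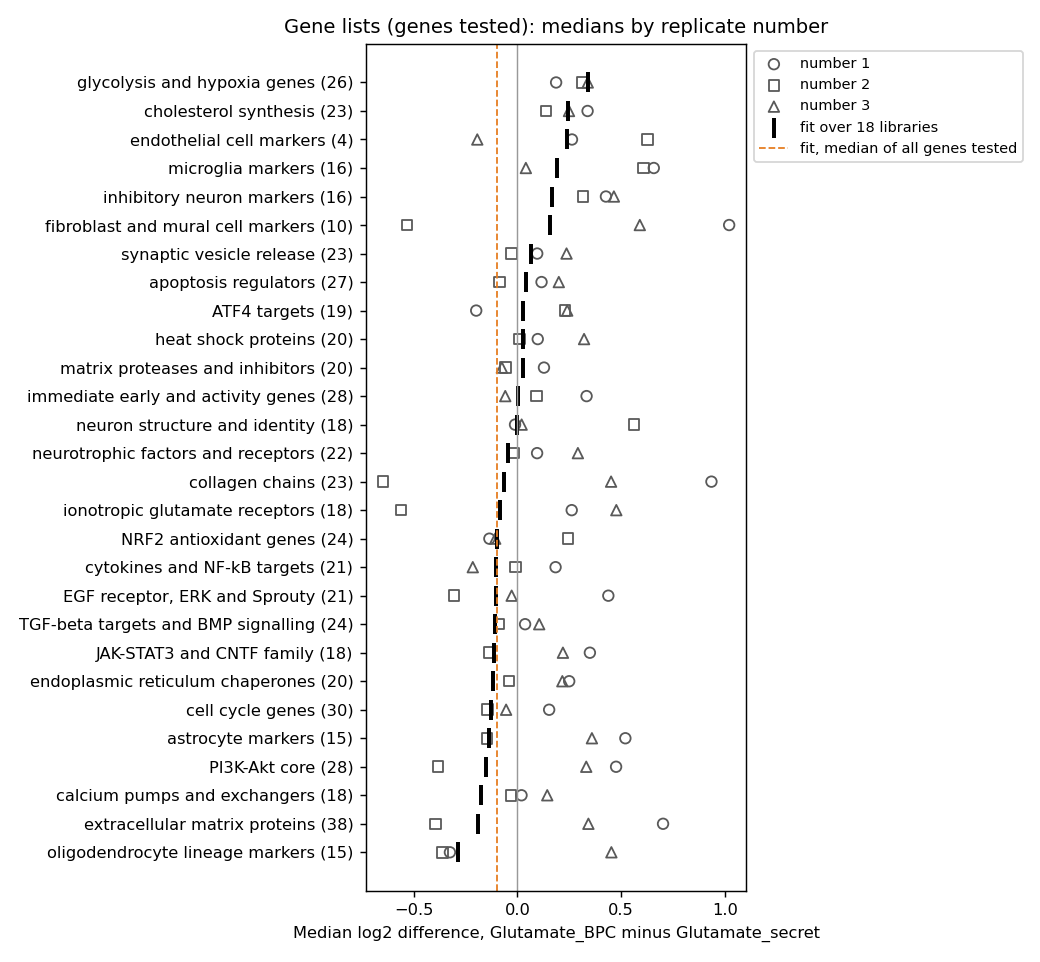
Median log2 difference, Glutamate_BPC minus Glutamate_secret, of the tested genes of each list (number in brackets). Black bars are medians of the fit over 18 libraries, open symbols medians of the plain difference at numbers 1, 2 and 3, and the dashed line is the median of all genes tested, -0.10. Glycolysis and cholesterol synthesis stand at the top. All 3 symbols lie above 0 in 5 of the 28 lists, these among them, and below 0 in 0 lists. Lists such as collagen chains have symbols on both sides.

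Glycolysis and hypoxia genes had the highest median without the block and the third highest with it, after inhibitory neuron (0.52) and microglia markers (0.48). Of the 26 tested, 20 (76.9%) had a fitted log2 fold change above 0, and the median was 0.34, or 0.37 with the block. Their summed level was 6711, 7859 and 7619 CPM in Glutamate_BPC and 5955, 5228 and 5992 CPM in Glutamate_secret. These sums did not overlap, and the exact two-sided permutation p of 0.1 is the smallest that 3 against 3 libraries allow; over 32 such measures the adjusted p was 1. Medians of the plain difference were 0.19, 0.31 and 0.34 at numbers 1, 2 and 3, and 10 of the 26 (38.5%, against 10.4% of all genes) were higher in all 3 numbers.

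Among the enzymes, Eno1, an enolase, stood at 1160, 1223 and 1402 CPM against 798, 838 and 725 CPM (log2 fold change 0.68, SE 0.38, 95% interval -0.13 to 1.5). Pkm, the pyruvate kinase of the final step, was at 1054, 1272 and 1133 CPM against 989, 874 and 784 CPM, and the aldolase Aldoa at 1184, 1200.4 and 1407 against 1161, 724 and 1071 CPM. In all 3, as in Pfkl, the groups did not overlap, although in Aldoa number 1 hardly differed. The glucose transporter Slc2a1 was at 93.2, 125 and 70.1 CPM against 55.9, 82.6 and 41.6 CPM (0.67, SE 0.43), higher within each number but overlapping between groups. The glycolytic activator Pfkfb3 had a value of -0.91 (SE 1.41) without the block and 0.27 (SE 0.71) with it, with 108 CPM in Glutamate_secret 2 and 5.36 to 41.9 CPM in the other 5 libraries. The glycolysis median depended on 1 library: without Glutamate_BPC 2 it was 0.096, with 15 of 26 genes above 0.

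Cholesterol synthesis genes had 19 of 23 tested (82.6%) above 0 and a median of 0.24, the second highest, or 0.29 with the block, where 4 lists were higher. Medians at numbers 1, 2 and 3 were 0.34, 0.14 and 0.25, and 10 of 23 (43.5%) were higher in all 3 numbers. The summed level was 2524, 1914 and 2187 CPM in Glutamate_BPC and 2018, 1643 and 1807 CPM in Glutamate_secret, which overlapped (exact two-sided permutation p = 0.2). Within numbers the sum was higher in Glutamate_BPC at 3 of 3, where an exact paired test cannot give a p below 0.25. Ranges did not overlap for 4 of the 23 genes, all with Glutamate_BPC above, where 2.23% of all genes were of this kind. Among them were Cyp51, Dhcr7 and Nsdhl, which act after the closure of the sterol rings. Nsdhl, a sterol dehydrogenase, stood at 35.6, 35 and 37.3 CPM against 24.4, 34 and 16.5 CPM (log2 fold change 0.52, SE 0.32), so that Glutamate_secret 2 came close to the Glutamate_BPC range.

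Hmgcs1, a synthase at the entry to the pathway, stood at 280, 252 and 278 CPM against 289, 238 and 342 CPM (log2 fold change -0.10, SE 0.33). Sqle, the squalene epoxidase, was at 122, 105.7 and 83 CPM against 91.2, 110 and 53 CPM (0.28, SE 0.35), so both overlapped between the groups. Without Glutamate_BPC 1 the list median was 0.13 and without Glutamate_secret 2 it was 0.41, with 15 of 23 genes above 0 in both. Astrocytes express both lists strongly: the astrocyte marker Gfap was at 5056, 5105 and 9940 CPM in Glutamate_BPC and at 3498, 3188 and 5590 CPM in Glutamate_secret (0.71, SE 0.67), and the list of 15 tested astrocyte markers had a median of -0.14 with 5 above 0, or 0.16 with the block. The summed astrocyte markers, 11020, 10620 and 18270 CPM against 9520, 9606 and 14600 CPM, were higher in Glutamate_BPC at 3 of 3 numbers, as were the sums of both lists. Gfap held a large part of the astrocyte sum, and the other astrocyte markers together were lower in Glutamate_BPC at each number. The part of the astrocyte share in either list was not tested.

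**Figure D5:**
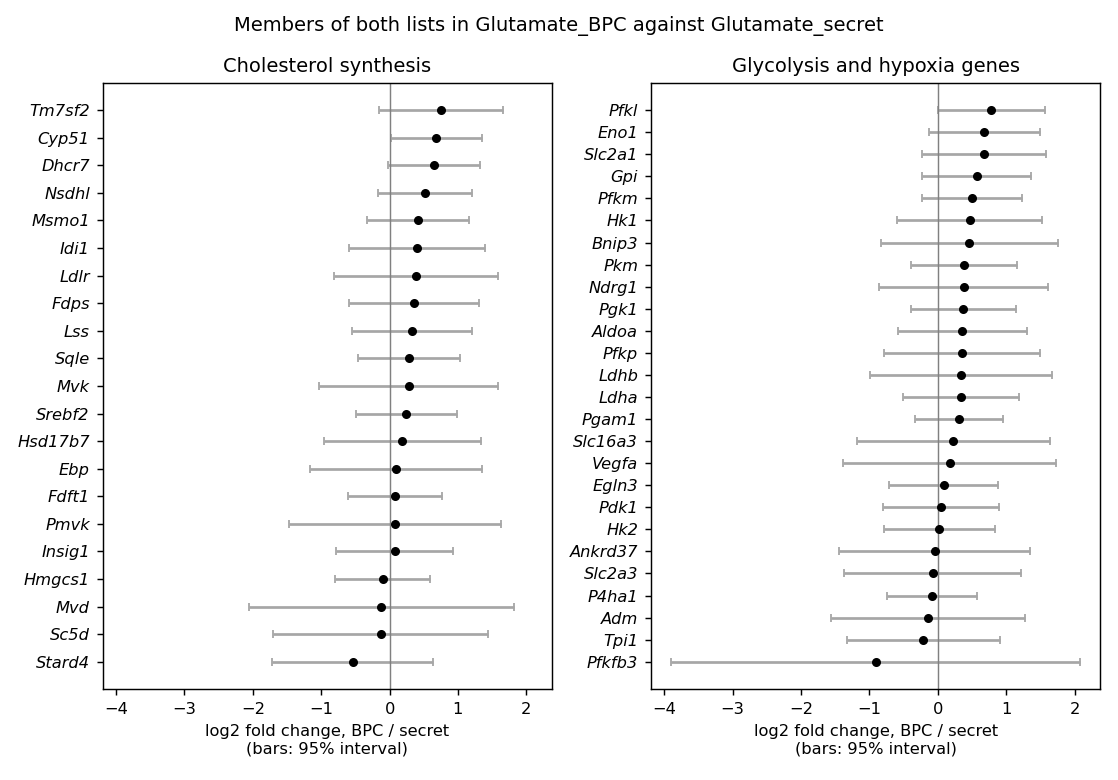
Fitted log2 fold changes, Glutamate_BPC over Glutamate_secret, of 21 of the 23 tested cholesterol synthesis genes (left) and the glycolysis and hypoxia genes (right, 26 tested); points are estimates and bars 95% intervals. Most points lie to the right of 0, and of the intervals only those of Cyp51 and Pfkl clear 0.

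Promoters of both lists were searched for the short core of the hypoxia response element, ACGTG, and for the sterol element written TCACNCCAC, on both strands. The window was the 250 bases before the start site in RefSeq (build GRCr8). ACGTG was in 7 of 23 glycolysis promoters (30.4%) and in 17.0% of 27457 promoters overall. TCACNCCAC was in 0 of 16 cholesterol promoters and in 0.976% overall. At so low a share, 0 was the likely count for 16 promoters, so it says nothing about this list. A match is a description of letters and not a bound site. Pfkl, Eno1, Pkm and Aldoa, whose ranges did not overlap, held 0 matches of ACGTG. Pfkfb3, with a log2 fold change of -0.91, and Ldha, with 0.34 and overlapping ranges, were among the holders. The holders of ACGTG with the highest fitted log2 fold changes, Slc2a1 (0.67) and the muscle-type phosphofructokinase Pfkm (0.50), are shown with the match, on either strand, in capitals. Slc2a1 lies at chr5:138002272-138002521 and Pfkm at chr7:131113849-131114098, both on the plus strand.
Slc2a1: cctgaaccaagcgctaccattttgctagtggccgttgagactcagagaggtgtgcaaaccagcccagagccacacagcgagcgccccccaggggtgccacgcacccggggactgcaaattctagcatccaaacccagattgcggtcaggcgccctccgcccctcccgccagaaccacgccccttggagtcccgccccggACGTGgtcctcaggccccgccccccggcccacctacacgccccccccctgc
Pfkm: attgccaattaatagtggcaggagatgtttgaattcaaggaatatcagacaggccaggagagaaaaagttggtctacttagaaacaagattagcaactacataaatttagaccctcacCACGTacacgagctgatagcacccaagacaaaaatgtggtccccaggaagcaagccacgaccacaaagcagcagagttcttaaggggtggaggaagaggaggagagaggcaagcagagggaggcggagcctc

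Lists of neuronal, synaptic and calcium pump genes had medians from -0.18 to 0.17. Of 16 inhibitory neuron markers tested, 12 were above 0, and the median was 0.17, or 0.52 with the block. The medians at numbers 1, 2 and 3 were 0.43, 0.32 and 0.46. Slc32a1, the vesicular GABA transporter, was at 11.1, 6.28 and 9.0 CPM in Glutamate_BPC and at 5.20, 4.56 and 5.79 CPM in Glutamate_secret (0.75, SE 0.45), without overlap. Gad1, which makes GABA, was at 88.7, 54.5 and 59.1 against 64.9, 32.1 and 38.7 CPM (0.58, SE 0.44), while Pvalb, of another interneuron class, had -1.28 (SE 1.01). The summed level of the list, 269 to 376 CPM against 260 to 314 CPM, overlapped.

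General neuronal genes had a median of 0.00 over 18 genes, or 0.13 with the block, with 9 above 0, and the synaptic membrane protein Snap25 stood at 21.8, 45.1 and 9.87 against 14.0, 34.6 and 7.60 CPM (0.44, SE 0.79). Cplx2, a regulator of vesicle fusion, was at 11.8, 15.3 and 18 CPM against 40.3, 20.6 and 49.6 CPM (-1.28, SE 0.59, edgeR unadjusted p = 0.045). It had the same order of Glutamate_secret libraries as the lower genes above. The neurofilament gene Nefm, with -1.07 (SE 0.85), had 18.6 CPM in Glutamate_secret 2 and 61.7 and 81.4 CPM in the other 2. Ionotropic glutamate receptors had a median of -0.08 with 7 of 18 above 0, synaptic vesicle genes 0.07 with 13 of 23, and calcium pumps and exchangers -0.18 with 6 of 18. With the block these medians were 0.14, 0.14 and 0.04. At numbers 1, 2 and 3 the receptor medians were 0.26, -0.56 and 0.48, and those of general neuronal genes -0.012, 0.56 and 0.02.

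Immediate early genes also had a median of 0.00, or 0.16 with the block, over 28 genes with 14 above 0. Fos, the standard marker of recent activity, stood at 38.7, 31.6 and 52.8 CPM in Glutamate_BPC and at 31.0, 27.6 and 48.9 CPM in Glutamate_secret (0.20, SE 0.42, 95% interval -0.69 to 1.08). Every Control library was lower, between 9.10 and 13.7 CPM. The 6 libraries thus lay between 27.6 and 52.8 CPM, beside 27.6 to 80.2 CPM with glutamate alone.

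Of the stress lists, endoplasmic reticulum chaperones and heat shock proteins differed in sum more than in median. Endoplasmic reticulum chaperones summed to 3813, 4007 and 3892 CPM in Glutamate_BPC and to 4724, 4286 and 6125 CPM in Glutamate_secret, without overlap (exact two-sided permutation p = 0.1, the smallest possible; adjusted p = 1). Their median was only -0.12 with 7 of 20 above 0, and Canx alone made up 73.7% of the difference between the mean sums. Without Canx the sums were 3556, 3583 and 3480 CPM against 3611, 3665 and 4243 CPM. Heat shock proteins summed to 11260, 9400 and 11620 CPM against 19920, 7720 and 20720 CPM, where Glutamate_secret 2 lay below the Glutamate_BPC range and the others above it, and their median was 0.02. NRF2 antioxidant genes had a median of -0.10, or 0.11 with the block, and ATF4 targets one of 0.03. Their sums overlapped between the groups, with means of 16190 CPM in Glutamate_BPC against 17980 in Glutamate_secret for NRF2 genes. For ATF4 targets the means were 4718 against 4543 CPM. Hmox1, the haem oxygenase, was nearly the same within each number: 344, 559 and 181 CPM in Glutamate_BPC 1 to 3 and 342, 480 and 174 CPM in Glutamate_secret 1 to 3 (0.12, SE 0.56).

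Matrix lists had medians of opposite sign at different numbers. The 38 tested extracellular matrix genes had a median of -0.19, or 0.22 with the block, with 0.70, -0.39 and 0.34 at numbers 1, 2 and 3. Collagen chains had -0.06, or 0.10 with the block, with 0.93, -0.65 and 0.45. The matrix glycoprotein Fbln2 stood at 552, 358 and 721 CPM against 723, 447 and 1862 CPM (-0.89, SE 0.63), lower within each number, though without Glutamate_secret 3 its value was -0.11. The protease inhibitor Timp1 stood at 352, 200 and 211 against 492, 158 and 322 CPM (-0.35, SE 0.91). Transforming growth factor Tgfb1 was at 8.6, 16 and 25.5 against 7.4, 10.2 and 5.43 CPM (1.10, SE 0.59). The list of TGF-beta targets and BMP signalling had a median of -0.11, or 0.03 with the block, with 12 of 24 above 0.

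For receptor pathways the medians were -0.10 for EGF receptor, ERK and Sprouty genes, -0.11 for the JAK-STAT3 and CNTF family, -0.15 for the PI3K-Akt core and -0.05 for neurotrophic factors and receptors. With the block they were -0.06, 0.03, 0.15 and 0.10. Egfr itself was at 2.26, 3.23 and 2.17 CPM against 1.10, 16.8 and 3.26 CPM, with a value of -1.44 (SE 1.00), and without Glutamate_secret 2 the value was 0.23. The cytokine Il11 was at 3.08, 5.82 and 0 CPM against 0, 1.15 and 0 CPM, with 0 in every Glutamate and Control library. Cytokines and NF-kB targets had a median of -0.10, or 0.12 with the block, apoptosis regulators 0.04, cell cycle genes -0.13 and matrix proteases and inhibitors 0.02.

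Glial and vascular marker sums overlapped between the preparations. Microglia markers had a median of 0.19, with 0.66, 0.61 and 0.04 at numbers 1, 2 and 3, yet C1qa, a complement subunit made by microglia, was at 38.9, 106.1 and 161 CPM against 33.9, 38.4 and 266 CPM. Number 3 was the highest library of C1qa in both groups. Oligodendrocyte lineage markers had -0.28, or -0.09 with the block, with -0.33, -0.36 and 0.45 at numbers 1, 2 and 3. Fibroblast and mural markers had 0.16 over 10 genes, or 0.34 with the block, and endothelial markers 0.24 over 4 genes, or 0.26. The lineage factor Olig2 was at 102, 133 and 103 CPM against 120, 171 and 128 CPM (-0.31, SE 0.38), lower within each number but overlapping.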

How the data were processed

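The authors removed adapters and poor bases (Trimmomatic, Cutadapt), ran Salmon on Ensembl rat transcripts (rn6) and summed its estimated counts per gene with tximport; the labels also name STAR. These expected counts were deposited, 31463 rows per library, and were rounded to whole numbers here. The sources used here do not give the strand setting of counting. Ribosomal RNA rows stayed in and were removed in an alternative. All 18 libraries were fitted with 1 mean per group in edgeR 4.0.16 (R 4.3.3; quasi-likelihood F test, TMM, filterByExpr with a minimum count of 10 and a minimum total of 15, prior count 2, Benjamini-Hochberg adjustment over 14398 genes). DESeq2 1.42.0, edgeR's likelihood-ratio test, RLE scaling, no filter, the 6 libraries alone, a ribosomal RNA covariate, replicate blocks and leaving out libraries were the alternatives. Scripts were tested on simulated data.

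Libraries of the same number deviated together from their group means (r = 0.459, 0.782 and 0.56 across genes for numbers 1, 2 and 3), so the numbers were taken as pairs; this rests on the data, since no label states what a number shares. Log2 CPM used a prior count of 2 and CPM no prior, both with library sizes scaled by TMM. Lists and members were chosen with earlier results of these data known. The named genes have a symbol, a mean log2 CPM of at least 1 over the 6 libraries and CPM ranges that do not overlap: the 10 with the largest fold among called genes in each direction, filled up by the smallest unadjusted p. Added to them were the member of each list with the smallest p, and Fos, Gfap, Snap25, Tubb3, Hmox1, Timp1 and Fbln2. Other list members were named after their values were seen. Exact permutation tests were two-sided. A total of 3 genes are not reported here, and counts and medians still hold them.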

Additional observations from a re-analysis of the deposited data

How the results depend on the processing

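No gene passed an adjusted p of 0.05 under any alternative run. The smallest adjusted p was 0.094 with DESeq2. In edgeR's quasi-likelihood test it was 0.32 with the ribosomal RNA covariate and 0.066 with that covariate and the replicate block. Every other alternative had 0.8158 or more. The number with an unadjusted p below 0.05 and a fold over 1.5, 67 as reported, was 127 with DESeq2, 185 without the filter, 112 with the 6 libraries alone, 788 with the ribosomal RNA covariate, and with the replicate block 177 (18 libraries), 316 (6 libraries) and 970 (with the covariate). Leaving out libraries it ran from 13 to 441: 441 without Glutamate_secret 2, 25 without Glutamate_secret 3, 37 without Glutamate_BPC 1, and 31, 183 and 13 without numbers 1, 2 and 3. Genes with an interval within 2-fold, 2442 as reported, were 5226 without the filter, 4435 with the covariate, with the replicate block 5216, 6100 (6 libraries) and 5588 (with the covariate), and 646 to 1675 without single libraries or numbers. The block changed no call. Of 929 values of the 49 named genes, 922 kept their direction. With libraries left out, 5 genes crossed 0: Timp1 from -0.678 to 0.0827 (the highest without Glutamate_secret 1), Egfr from -1.93 to 0.231 (0.231 without Glutamate_secret 2, 0.03 without number 2), Hmox1 from -0.341 to 0.487 (-0.341 without Glutamate_BPC 2, -0.19 without Glutamate_secret 3), Snap25 from -0.25 (without Glutamate_BPC 2) to 1.24 and Fos from -0.0257 (without Glutamate_BPC 3) to 0.481. Added after seeing the data, the list medians with libraries left out ran from 0.13 to 0.41 for cholesterol synthesis and from 0.096 to 0.42 for glycolysis. The cause of these shifts was not tested. The median 95% interval, 1.29 on the log2 scale to each side, is wider than most of the estimates.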

Other observations

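Acss2, which makes acetyl-CoA from acetate for lipid synthesis and histone acetylation, fell outside the rule for named genes because its ranges overlapped, and was chosen after its values were seen. It stood at 66.9, 31.3 and 72.1 CPM in Glutamate_BPC 1 to 3 and at 21.7, 20.4 and 32.6 CPM in Glutamate_secret 1 to 3 (log2 fold change 1.18, SE 0.41, edgeR unadjusted p = 0.0104). Nxph4, a neurexophilin, chosen in the same way, was at 0.543, 2.42 and 3.25 CPM against 0.315, 0.619 and 0.181 CPM, and both genes were higher in Glutamate_BPC at each number. The elastin gene Eln, also chosen after its values were seen, was at 21.3, 19.2 and 32.2 CPM against 12.4, 18.1 and 12.7 CPM (0.74, SE 0.37).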
